A study of Mus musculus with 21 samples.

Results

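The nuclear genes for the subunits of oxidative phosphorylation were followed in mouse B cell precursors that carried an oncogene or an empty vector. The genes were chosen by name, as the symbols that begin with Ndufa, Ndufb, Ndufc, Ndufs or Ndufv and a digit, the symbols Sdha to Sdhd, and those that begin with Uqcr, Cox4 to Cox8 or Atp5. A mean of at least 50 counts over the 6 RNA libraries was also required. The name rule took 84 of the 24421 symbols in the table, and 76 of these reached the mean. All 76 passed the filter on low counts and were tested. By symbol, 34 were assigned to complex I, 4 to complex II, 8 to complex III, 13 to complex IV and 17 to complex V. Ndufa4 was counted in complex IV, where its protein is found. The 17 of complex V include Atp5s and Atp5sl by symbol alone, which now carry the names Dmac2l and Dmac2. Primary B cell precursors were grown from the bone marrow of 53BP1-/- C57BL/6 mice in medium with interleukin-7, so every library, the control included, lacks the DNA repair factor 53BP1 by genotype. The cells received the retroviral vector MIGR1 alone (EV), MIGR1 with human BCR-ABL1p210, a fusion kinase of human leukemia, or MIGR1 with mouse C-MYC, a transcription factor. The labels place the harvest on days 7 to 9 after transduction. There were 2 RNA libraries per condition, described by the study as duplicate experiments, and the study's methods name dead cell removal but no sort for transduced or B lineage cells.

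Oxidative phosphorylation takes place in the inner mitochondrial membrane. Complex I oxidises NADH and complex II oxidises succinate, both pass electrons through ubiquinone to complex III, and cytochrome c carries them on to complex IV, which reduces oxygen. Complexes I, III and IV pump protons, and complex V, the ATP synthase, uses the return of the protons to make ATP. A few core subunits of complexes I, III, IV and V are encoded in mitochondrial DNA, while all of complex II and the genes studied here are encoded in the nucleus. MYC is known to bind many promoters of nuclear genes for mitochondrial proteins, and growing B cell precursors use both glycolysis and respiration.

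The libraries held between 20687092 and 24095955 counts, of which the 76 genes took between 1.05% and 1.3%, with a median between 1928 and 2756 counts per gene. Levels are given as CPM, the count divided by the library's TMM-scaled total on the usual scale. Myc stood at 181 and 137 CPM with EV, 343 and 348 with BCR-ABL1 and 1743 and 1233 with C-MYC. In BCR-ABL1 against EV, where no vector carried C-MYC, edgeR called it higher (log2 fold change 1.12, adjusted p = 0.00681). In the C-MYC libraries, vector and endogenous transcripts cannot be told apart in these counts. Trp53bp1, the gene of 53BP1, had between 15.7 and 30.2 CPM in the 6 libraries, and the counts do not show which part of the gene is deleted. The labelled cell type was met by its markers, as all 11 B cell precursor markers were detected and their summed level lay between 6054 and 6972 CPM in EV and BCR-ABL1 and between 3712 and 4329 CPM in C-MYC. The EV libraries also held transcripts of other cells. The 9 myeloid markers summed to 1274 and 1122 CPM with EV, 140.7 and 157 with BCR-ABL1 and 191 and 328 with C-MYC. The 7 stromal markers summed to between 176 and 278 CPM in EV and between 4.18 and 14.4 CPM in the oncogene libraries, where Cxcl12 and Pdgfrb were at 0 in both C-MYC libraries. The 8 T and NK cell markers summed to between 188.5 and 247 CPM in EV, 117 and 132 with BCR-ABL1 and 54.6 and 59.9 with C-MYC, and the 8 erythroid markers to between 0.711 and 1.61 CPM in all. Among the markers, 9 of 9 myeloid markers were called lower against EV in both oncogene conditions, 7 and 6 of 7 stromal markers and 8 and 7 of 8 T and NK cell markers in C-MYC and BCR-ABL1, and 9 and 2 of 11 B cell precursor markers. In BCR-ABL1, 1 B cell precursor marker was called higher. Of all genes, 24.5% and 12.0% were called lower in C-MYC and BCR-ABL1. These marker differences move with every comparison against EV, and their part in the results was not tested.

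Many of the 76 genes were called higher with C-MYC than with EV and few with BCR-ABL1 than with EV. Their summed level was 10213 and 9929.8 CPM with EV, 11905 and 11927 with BCR-ABL1 and 13798 and 13208 with C-MYC, so that no condition overlapped another. In bulk RNA, more transcript per cell and more cells of a type with much transcript cannot be told apart. In C-MYC against EV, 40 of the 76 genes were called higher by edgeR's quasi-likelihood test at an adjusted p below 0.05, a share of 52.6%, where 18.6% of the 12786 genes tested were called higher. None was called lower, beside 24.5% of all genes. DESeq2 also called 0 of them lower, limma on FPKM called 1, and at an unadjusted p below 0.05 edgeR found 48 higher and 1 lower. The median log2 fold change was 0.33 over the 76 genes and -0.08 over all genes, and 66 of the 76 estimates were above 0, where 45.3% of all genes were. Abundant genes are called more readily, and of the 6770 genes that averaged 500 counts or more, 26.9% were called higher and 20.2% lower, beside 39 and 0 of the 73 subunit genes at that level.

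In BCR-ABL1 against EV, edgeR called 7 of the 76 genes higher (9.21%), beside 5.08% of all genes, and 0 lower, beside 12.0%. At an unadjusted p below 0.05 there were 25 higher and 0 lower, and DESeq2 and limma called 0 lower. The median log2 fold change was 0.22, against 0.00 over all genes, and 72 of the 76 estimates were above 0, where 50.2% of all genes were. At 500 counts or more, 7 of the 73 genes were called higher and 0 lower, against 7.05% and 5.01% of all genes at that level. In C-MYC against BCR-ABL1, 9 genes (11.8%) were called higher, a share close to the 11.5% of all genes, and 0 lower, beside 11.9%, with a median of 0.10 against 0.00 over all genes. At 500 counts or more, 9 and 0 of the 73 were called, against 13.2% and 13.5%. At an unadjusted p below 0.05 there were 15 higher and 2 lower in this comparison, DESeq2 called 0 lower and limma called 1. The comparisons of the oncogenes with EV share the EV libraries. The mean level of BCR-ABL1 lay between those of EV and C-MYC for 55 genes, C-MYC was highest for 53, BCR-ABL1 for 20 and EV for 3. Such orders were not counted over all genes, so they are not shown to be particular to the subunit genes.

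**Figure D1:**
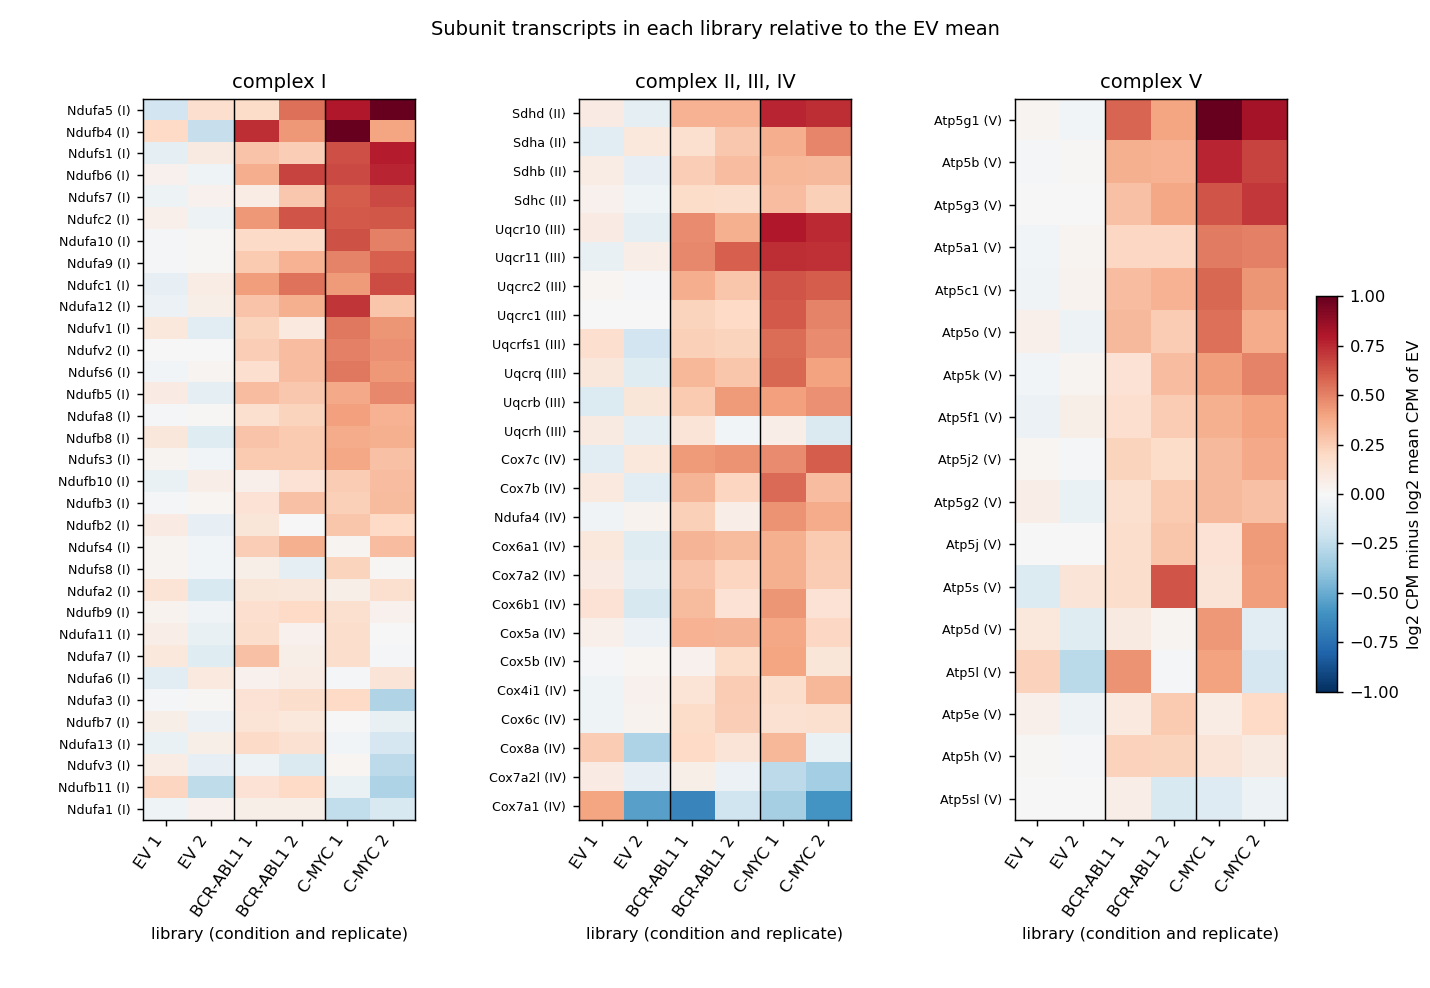
Level of 75 of the 76 subunit genes in the 6 libraries, as log2 CPM minus the log2 mean CPM of EV (colour, from -1 in blue to 1 in red, with values beyond these drawn at the end of the scale), with genes of each complex ordered by their change in C-MYC against EV. C-MYC columns are red for most genes, BCR-ABL1 columns are paler, and Ndufa5, Atp5g1 and Uqcr10 head their complexes.

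The smaller counts depended on having both BCR-ABL1 libraries. Without a BCR-ABL1 or C-MYC library, fewer genes of the whole table were called as well in every comparison. A fall in these counts is therefore no result about the subunit genes alone. Without BCR-ABL1 replicate 1 and 2, their median log2 fold change in BCR-ABL1 against EV was 0.26 and 0.21. In BCR-ABL1 against EV, 0 genes were called by edgeR's quasi-likelihood test without BCR-ABL1 replicate 1 and 0 without BCR-ABL1 replicate 2, where 11 and 7 were higher at an unadjusted p below 0.05. The count was 4 without either C-MYC library and 11 without EV replicate 1. DESeq2 called 14, where it called 7.25% of all genes higher. limma on FPKM, which could test 75 of the genes, called 0, where it called 2.33% of all genes higher. With limma, 15 of the subunit genes were higher at an unadjusted p below 0.05. In C-MYC against BCR-ABL1, 0 genes were called without BCR-ABL1 replicate 1, BCR-ABL1 replicate 2 or C-MYC replicate 1, with 4, 8 and 7 higher at an unadjusted p below 0.05. Without C-MYC replicate 2 the count was 1, and without either EV library 14. The count of C-MYC against EV was 21 without C-MYC replicate 1 and 25 without C-MYC replicate 2, and all of these were among the 40. For complexes I to V in order, the counts of 17, 3, 7, 3 and 10 became 9, 2, 4, 1 and 5 without the first of these libraries and 12, 1, 5, 1 and 6 without the other. Of the 27 called genes that the naming rule chose in C-MYC against EV, 17 were called whichever library was left out. The 10 others were Ndufb4, Ndufs3, Ndufv1, Sdha, Sdhb, Uqcrfs1, Cox7c, Ndufa4, Atp5g2 and Atp5o. Over all settings tried, the median of the genes lay between 0.22 and 0.39 in C-MYC against EV, between 0.15 and 0.26 in BCR-ABL1 against EV and between 0.06 and 0.13 in C-MYC against BCR-ABL1.

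**Figure D2:**
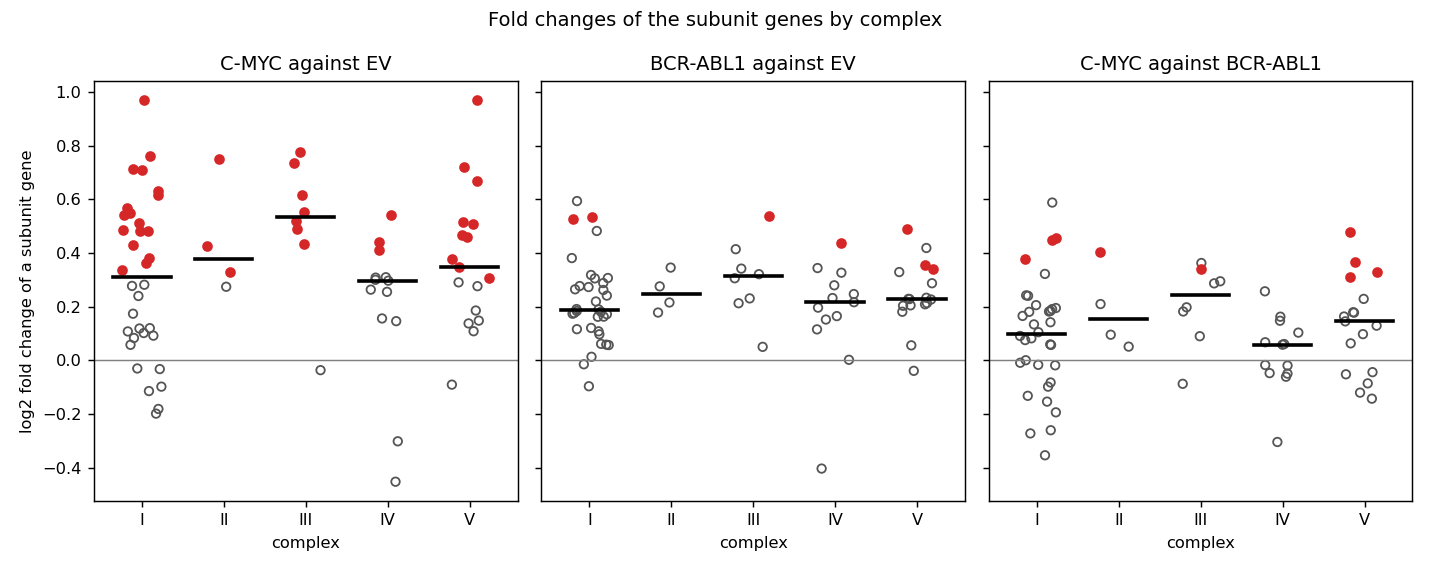
Log2 fold change of each subunit gene (vertical axis) by complex (horizontal axis) in the 3 comparisons, where filled red points were called by edgeR at an adjusted p below 0.05, open points were not and bars are medians. In C-MYC against EV the medians run from 0.30 in complex IV to 0.54 in complex III, with 3 of 13 and 7 of 8 genes called higher, beside 18.6% of all genes.

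Complex I has an L shape, with a matrix arm that takes electrons from NADH to ubiquinone and a membrane arm that pumps protons. In C-MYC against EV, 17 of its 34 genes were called higher (50%, beside 18.6% of all genes) and 17 were not called. The median log2 fold change was 0.31. The matrix arm had 9 of 16 called and a median of 0.41, and the membrane arm 8 of 18 and a median of 0.28. Summed over the genes, the matrix arm stood at 1170.0 and 1161 CPM with EV, 1306 and 1322 with BCR-ABL1 and 1512 and 1480.3 with C-MYC, with no overlap between conditions. The membrane arm stood at 1235 and 1157 CPM with EV, 1382 and 1412 with BCR-ABL1 and 1452 and 1386 with C-MYC, and here C-MYC overlapped BCR-ABL1.

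The matrix arm carries electrons from the flavin over iron-sulfur clusters, and 5 of its central subunits were called higher in C-MYC against EV. Ndufs1, the large iron-sulfur subunit, had 84 and 95.7 CPM with EV, 109.6 and 106 with BCR-ABL1 and 140.2 and 154 with C-MYC. It lay higher in C-MYC than in both other conditions in every library (against EV log2 fold change 0.71, SE 0.12, adjusted p = 0.00238, against BCR-ABL1 log2 fold change 0.45, SE 0.12, adjusted p = 0.0282). Ndufs7, which carries the last iron-sulfur cluster before ubiquinone, had 41.8 and 44.7 CPM with EV, 45.5 and 52.3 with BCR-ABL1 and 65.8 and 68.2 with C-MYC. Its C-MYC libraries also lay above all others (against EV log2 fold change 0.63, SE 0.13, adjusted p = 0.00571, against BCR-ABL1 log2 fold change 0.45, SE 0.13, adjusted p = 0.036). Ndufv1, the subunit that binds NADH and flavin, had 95.4 and 82.4 CPM with EV, 104 and 95.1 with BCR-ABL1 and 128 and 121 with C-MYC, and was called against EV (log2 fold change 0.49, SE 0.12, adjusted p = 0.0138). Ndufv2, its iron-sulfur partner, and Ndufs3 changed by 0.48 (adjusted p = 0.00613) and 0.34 (adjusted p = 0.0426). Ndufs8, an iron-sulfur subunit, was not called. It differed by 0.12 with an SE of 0.12, and its libraries overlapped.

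The largest change of any subunit gene in C-MYC against EV was that of Ndufa5, an accessory subunit of the matrix arm on chr6:24518666-24528013 (GRCm38). It had 23.3 and 29.8 CPM with EV, 30.2 and 39 with BCR-ABL1 and 46.3 and 57.8 with C-MYC, with all C-MYC libraries above all others (log2 fold change 0.97, SE 0.19, adjusted p = 0.00578 against EV). Ndufb4, of the membrane arm and among the genes with the fewest counts, had 15.9 and 11.8 CPM with EV, 23.1 and 18.7 with BCR-ABL1 and 28.7 and 18.2 with C-MYC. Its C-MYC libraries overlapped those of BCR-ABL1 (log2 fold change 0.76, SE 0.26, adjusted p = 0.0453 against EV). Ndufa10, an accessory subunit of the membrane arm, had 109 and 112 CPM with EV, 126 and 126 with BCR-ABL1 and 171 and 157 with C-MYC, without overlap between conditions, and was called against EV (0.57, adjusted p = 0.00359) and against BCR-ABL1 (0.38, adjusted p = 0.033). Ndufb6 and Ndufc2, also of the membrane arm, were the complex I genes called in BCR-ABL1 against EV, a share of 5.88% near the 5.08% of all genes. Ndufb6 had 38.8 and 36.4 CPM with EV, 48.4 and 60.0 with BCR-ABL1 and 59.3 and 63.8 with C-MYC, and Ndufc2 had 74.7 and 69.3 CPM with EV, 97.4 and 111 with BCR-ABL1 and 110.0 and 111 with C-MYC. Both were higher in every oncogene library than in EV, by 0.53 (adjusted p = 0.0408) and 0.53 (adjusted p = 0.0181) in BCR-ABL1 and by 0.71 (adjusted p = 0.00573) and 0.62 (adjusted p = 0.00434) in C-MYC, and C-MYC against BCR-ABL1 was not called for either (0.18 at adjusted p = 0.389 and 0.08 at adjusted p = 0.643). At the other end, Ndufa1, a membrane arm subunit encoded on the X chromosome, had 44.8 and 47.6 CPM with EV, 48.2 and 48.2 with BCR-ABL1 and 39 and 41.5 with C-MYC, and Ndufb11, also X-linked, had 167 and 119.8 CPM with EV, 158 and 164 with BCR-ABL1 and 137 and 116 with C-MYC. C-MYC libraries of Ndufa1 lay below all others, yet neither gene was called (-0.20 at adjusted p = 0.216 and -0.18 at adjusted p = 0.413 against EV). Ndufa1 and Ndufb11 were named after their values were seen.

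Complex II, succinate dehydrogenase, also serves the citric acid cycle. All 4 genes were higher in both oncogene conditions than in EV in every library, and 3 were called in C-MYC against EV (75%, beside 18.6% of all genes). The share of all genes whose libraries lie apart in this way was not computed, so the first count is a description only. The summed level was 592 and 601 CPM with EV, 693 and 723 with BCR-ABL1 and 802 and 825 with C-MYC. Sdha, the flavoprotein that oxidises succinate, had 251 and 293 CPM with EV, 305 and 328 with BCR-ABL1 and 349.7 and 382 with C-MYC, and Sdhb, its iron-sulfur partner, had 140.3 and 126 CPM with EV, 158 and 165 with BCR-ABL1 and 167 and 167 with C-MYC. They changed by 0.43 (adjusted p = 0.0185) and 0.33 (adjusted p = 0.0355) in C-MYC against EV. Of the membrane anchors, Sdhd had 109.8 and 97.4 CPM with EV, 131 and 132 with BCR-ABL1 and 176 and 173 with C-MYC, with no overlap between conditions, and was called against EV (log2 fold change 0.75, SE 0.11, adjusted p = 0.00141) and against BCR-ABL1 (log2 fold change 0.40, SE 0.11, adjusted p = 0.0298). Sdhc, the other anchor, had 90.4 and 85.1 CPM with EV, 99.5 and 99.1 with BCR-ABL1 and 109 and 103 with C-MYC and was not called (0.27 at adjusted p = 0.0664 against EV). No complex II gene was called in BCR-ABL1 against EV by edgeR, where the 4 estimates lay between 0.18 and 0.35 and 2 had an unadjusted p below 0.05. DESeq2 called 1 of them and limma 0.

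Complex III had 7 of 8 genes called in C-MYC against EV, and 4 of 8 without C-MYC replicate 1. The 7 genes are 87.5% of the complex, beside 18.6% of all genes called higher. The median log2 fold change of complex III in C-MYC against EV was 0.54, above that of each other complex there and in all settings tried. Its summed level was 884 and 832 CPM with EV, 1045 and 1021 with BCR-ABL1 and 1244 and 1175 with C-MYC, with no overlap. Uqcrfs1, the Rieske iron-sulfur protein, had 129 and 100.1 CPM with EV, 135 and 134 with BCR-ABL1 and 169 and 159 with C-MYC (0.52 against EV, adjusted p = 0.0168). The core proteins Uqcrc1 and Uqcrc2 had 190.2 and 189.5 CPM with EV, 222 and 218 with BCR-ABL1 and 290.1 and 267 with C-MYC, and 160.1 and 156 CPM with EV, 203 and 192 with BCR-ABL1 and 244 and 241 with C-MYC. They changed by 0.55 (adjusted p = 0.0032) and 0.62 (adjusted p = 0.00203) against EV, and Uqcrc1 was also called against BCR-ABL1 (0.34 at adjusted p = 0.039). The small subunit Uqcr10 had 58.2 and 51.7 CPM with EV, 76.2 and 70.3 with BCR-ABL1 and 96 and 92.4 with C-MYC, without overlap (log2 fold change 0.78, SE 0.12, adjusted p = 0.00195 against EV). Uqcr11, another small subunit, had 52 and 57.2 CPM with EV, 76 and 82.6 with BCR-ABL1 and 91.2 and 90.7 with C-MYC. It was higher in each oncogene library than in EV and was called in BCR-ABL1 (log2 fold change 0.54, SE 0.12, adjusted p = 0.0181) and in C-MYC (log2 fold change 0.74, SE 0.12, adjusted p = 0.00214). Uqcrh, the hinge protein at the site of cytochrome c1, was the gene of the complex that was not called and is named after its values were seen. It had 146 and 129 CPM with EV, 149.7 and 134 with BCR-ABL1 and 143 and 124 with C-MYC, so that the conditions overlapped, and its difference between C-MYC and EV was -0.04 with an SE of 0.12.

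Complex IV, cytochrome c oxidase, had 3 of 13 genes called higher in C-MYC against EV. This share of 23.1% lies near the 18.6% of all genes, and 26.9% of genes that averaged 500 counts or more were called. The 3 genes were Cox7c, Ndufa4 and Cox7b, the last of which is named after its values were seen. The count was 7 without EV replicate 1 and with DESeq2, and 1 without either C-MYC library. The median log2 fold change was 0.30. Its summed level was 1941 and 1784 CPM with EV, 2192 and 2150.4 with BCR-ABL1 and 2303 and 2116 with C-MYC. The oncogene libraries were all above EV, but C-MYC and BCR-ABL1 overlapped. None of the complex IV genes was called between them in the main edgeR fit, with 1 higher and 1 lower at an unadjusted p below 0.05. DESeq2 called 0 there, and limma 1 lower. The median of that comparison was 0.06 and turned to -0.06 without C-MYC replicate 1. The subunits next to the catalytic core were higher in C-MYC than in EV without a call, with 0.26 (adjusted p = 0.0862) for Cox4i1, 0.30 (adjusted p = 0.0539) for Cox5a and 0.26 (adjusted p = 0.119) for Cox5b. Cox4i1 had 214 and 227 CPM with EV, 243 and 263 with BCR-ABL1 and 249 and 278 with C-MYC. Cox7c, a small membrane subunit, had 85.6 and 99.2 CPM with EV, 124 and 126 with BCR-ABL1 and 128 and 141 with C-MYC, with EV below all oncogene libraries, and was called in BCR-ABL1 (log2 fold change 0.44, SE 0.12, adjusted p = 0.0404) and in C-MYC (log2 fold change 0.54, SE 0.12, adjusted p = 0.00801). Ndufa4, long assigned to complex I, had 128 and 135 CPM with EV, 155 and 138 with BCR-ABL1 and 179.6 and 171 with C-MYC (0.41 in C-MYC against EV, adjusted p = 0.0175), and its BCR-ABL1 libraries did not overlap those of EV. Cox8a, a small subunit, had 229 and 155 CPM with EV, 221 and 210.4 with BCR-ABL1 and 241 and 184 with C-MYC, where the 2 libraries of EV differed more than the conditions did.

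The Cox7a genes differed in opposite directions between C-MYC and EV, without a call in the main edgeR fit. Cox7a2 encodes the form of the subunit found in most tissues, Cox7a1 the form of heart and muscle, and Cox7a2l a related protein that joins complex III to complex IV in supercomplexes. Cox7a2l had 204 and 183 CPM with EV, 202 and 186 with BCR-ABL1 and 161 and 153 with C-MYC, with C-MYC below all other libraries, while Cox7a2 had 89.7 and 79.8 CPM with EV, 103 and 98.1 with BCR-ABL1 and 109 and 101 with C-MYC, with EV below all other libraries. Neither was called in the main edgeR fit in C-MYC against EV, where the log2 fold changes were -0.30 (adjusted p = 0.0557) and 0.31 (adjusted p = 0.0604). Cox7a2l was called lower there and in C-MYC against BCR-ABL1 by edgeR with scaling to total counts and by limma on FPKM. Against BCR-ABL1 it was also called lower by edgeR with only the 4 libraries compared. As a share of the counts of the 3 genes within a library, which no scaling between libraries affects, Cox7a2 took 30.0% and 30.1% with EV, 33.6% and 34.2% with BCR-ABL1 and 39.8% and 39.5% with C-MYC. The share of Cox7a2l was 68.4% and 69% with EV, 65.7% and 64.8% with BCR-ABL1 and 59.2% and 59.6% with C-MYC. In each library the exact 95% binomial interval, which covers counting error only, reached no more than 1.29 percentage points from the share, and the conditions did not overlap. With 2 libraries against 2, an exact permutation test cannot give a 2-sided p below 0.333. Cox7a1 took between 0.726% and 1.55%, at 47 to 99 counts, and is the gene just above the required mean, with 65.2 counts on average.

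Complex V had 10 of 17 genes called higher in C-MYC against EV (58.8%, beside 18.6% of all genes) and a median log2 fold change of 0.35. It had the largest ratio of summed levels between C-MYC and EV, with 4391 and 4394 CPM with EV, 5287 and 5297 with BCR-ABL1 and 6486 and 6227 with C-MYC. It took a larger part of all subunit transcripts in C-MYC than in EV, 43.0% and 44.3% of the summed CPM with EV, 44.4% in both BCR-ABL1 libraries and 47.0% and 47.1% with C-MYC. Sums are weighted by abundance. Atp5b and Atp5a1, far above every other subunit gene, went from 1234 and 1127 CPM in EV replicate 1 to 2110 and 1653 in C-MYC replicate 1. The share without these genes was not computed, so a larger part is not shown for the rest of complex V. Its median of 0.35 lies near the 0.33 of all 76 genes. Complex IV took 16.7% and 16.0% in C-MYC, below every EV and BCR-ABL1 library, the lowest of which stood at 18.0%. These shares do not depend on the scaling between libraries, and in both cases the C-MYC libraries lay apart from the others.

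**Figure D3:**
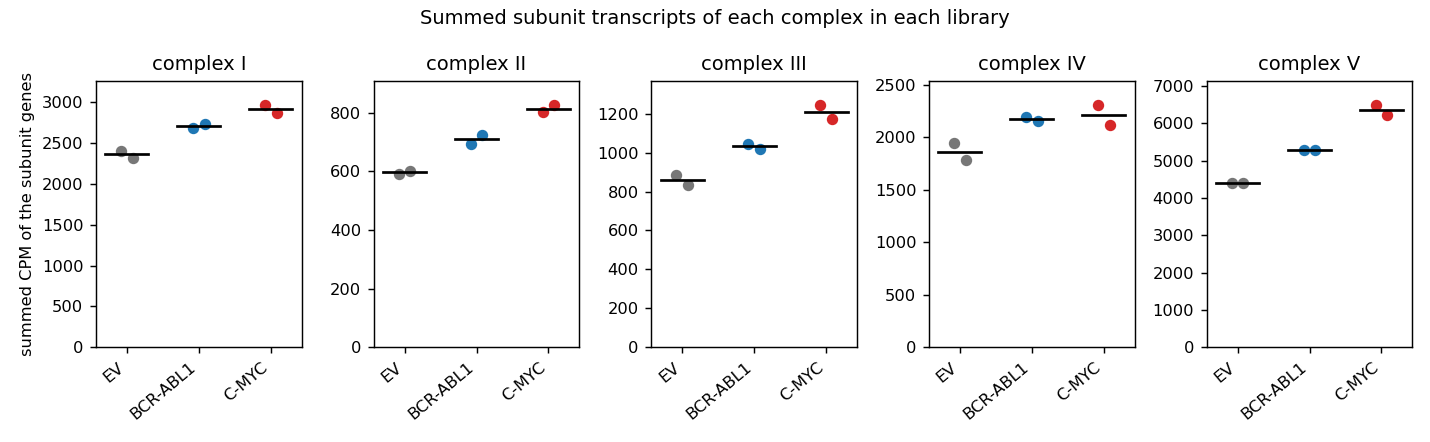
Summed CPM of the subunit genes of each complex (vertical axis, from 0) in the 2 libraries of each condition (points), with the mean (line). Complex V goes from 4391 and 4394 CPM in EV to 6486 and 6227 in C-MYC, while the C-MYC points of complex IV lie on both sides of those of BCR-ABL1.

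The catalytic head of the ATP synthase, made of the alpha and beta subunits, was called higher in C-MYC against EV in both genes. Atp5b, the catalytic beta subunit on chr10:128083273-128090391, had 1234 and 1252 CPM with EV, 1593 and 1583 with BCR-ABL1 and 2110.4 and 1987 with C-MYC. The conditions did not overlap, and all 3 comparisons were called (log2 fold change 0.72, SE 0.09, adjusted p = 0.000728 in C-MYC, log2 fold change 0.35, SE 0.09, adjusted p = 0.0279 in BCR-ABL1, and 0.37 at adjusted p = 0.0199 between them). Atp5a1, the alpha subunit, had 1127 and 1174 CPM with EV, 1326 and 1327 with BCR-ABL1 and 1653 and 1636 with C-MYC. It was called in C-MYC against EV (log2 fold change 0.52, SE 0.08, adjusted p = 0.00249) and against BCR-ABL1 (0.31 at adjusted p = 0.0342), and not in BCR-ABL1 against EV (0.21 at adjusted p = 0.143). Atp5c1, the gamma subunit of the rotating stalk, and Atp5o, which ties the head to the side stalk, changed by 0.51 (adjusted p = 0.00509) and 0.47 (adjusted p = 0.0106) in C-MYC against EV. The other stalk subunits Atp5d (delta) and Atp5e (epsilon) were not called, with 0.19 (adjusted p = 0.431) and 0.14 (adjusted p = 0.379). Atp5d had 198 and 169 CPM with EV, 195 and 186 with BCR-ABL1 and 248 and 169 with C-MYC, where the libraries of all conditions overlapped. Atp5l, a small membrane subunit named after its values were seen, had 77.6 and 54.8 CPM with EV, 90.4 and 65.3 with BCR-ABL1 and 87.7 and 59 with C-MYC, so that the libraries of a condition differed more than the conditions.

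Subunit c, which forms the rotating ring in the membrane, is encoded by Atp5g1, Atp5g2 and Atp5g3, genes whose proteins differ in the import sequence that is removed and share the mature subunit. All 3 were called higher in C-MYC against EV, by unequal amounts. Atp5g1, on chr11:96068852-96075670, had 101 and 97.7 CPM with EV, 149 and 131 with BCR-ABL1 and 213 and 177 with C-MYC. No condition overlapped another, and it was called in C-MYC against EV (log2 fold change 0.97, SE 0.13, adjusted p = 0.00103), in BCR-ABL1 against EV (log2 fold change 0.49, SE 0.13, adjusted p = 0.035) and between the oncogenes (log2 fold change 0.48, SE 0.13, adjusted p = 0.0302). Atp5g3, on chr2:73908447-73911326, had 275 and 273 CPM with EV, 336 and 357 with BCR-ABL1 and 423 and 448 with C-MYC, also without overlap, and was called in all 3 comparisons (0.67, 0.34 and 0.33, adjusted p = 0.00138, 0.045 and 0.0395). Atp5g2, on chr15:102662864-102672352, had 165 and 151 CPM with EV, 176 and 189 with BCR-ABL1 and 197 and 193 with C-MYC, and was called in C-MYC against EV alone (log2 fold change 0.31, SE 0.10, adjusted p = 0.0432), with 0.21 (adjusted p = 0.213) in BCR-ABL1. Near-identical coding sequence and processed copies of such genes can split reads in a way the sources used here do not describe, so values of the single genes are uncertain to that extent.

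Within a library, the part of the subunit c counts that came from Atp5g2 was lower in C-MYC than in EV. It was 30.4% and 28.9% with EV, 26.6% and 27.9% with BCR-ABL1 and 23.7% and 23.6% with C-MYC, with no overlap between conditions. Atp5g1 took 18.7% and 18.7% with EV, 22.5% and 19.4% with BCR-ABL1 and 25.5% and 21.7% with C-MYC, where both C-MYC libraries were above EV and overlapped BCR-ABL1. The share of Atp5g3 was 50.8% and 52.4% with EV, 50.9% and 52.8% with BCR-ABL1 and 50.8% and 54.7% with C-MYC, with overlap. These are shares of reads without correction for transcript length, so they compare libraries and not genes, and the smallest 2-sided p of an exact permutation test is again 0.333.

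**Figure D4:**
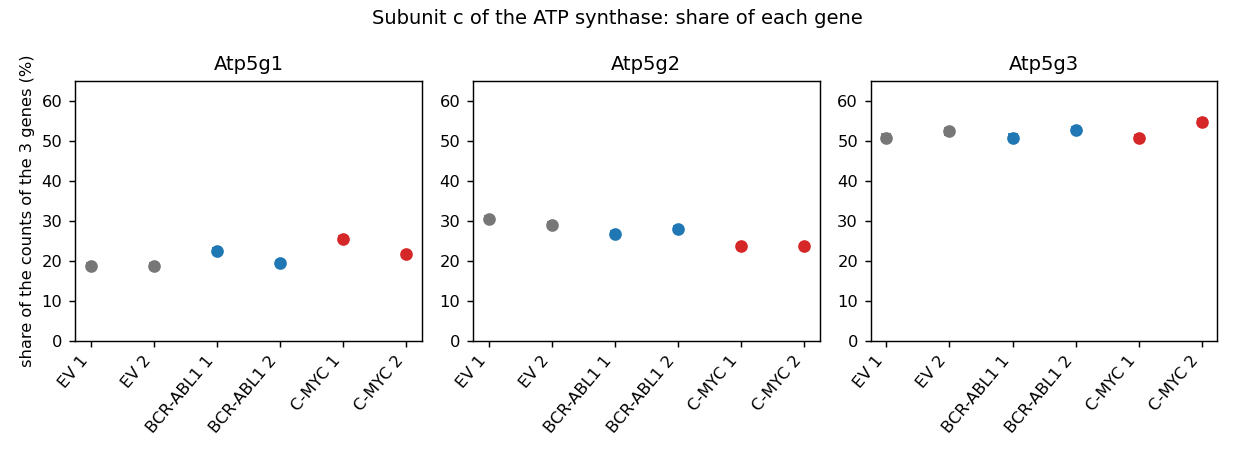
Share of the counts of the 3 subunit c genes that came from each gene (vertical axis, %) in the 6 libraries, with exact 95% binomial intervals as error bars. Atp5g2 goes from 30.4% and 28.9% in EV to 23.7% and 23.6% in C-MYC, and Atp5g1 stands at 18.7% in both EV libraries.

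The sequence around the transcription start was available from RefSeq (GRCm38.p6) for 65 of the 76 genes, as windows from 250 bases before to 50 bases after the start. Windows of the subunit c genes and of Uqcr11, a gene called in both oncogene conditions, are shown 5′ to 3′ because these genes were all called higher in C-MYC against EV and differ in the motifs they hold. Capitals mark the motifs CACGTG (the E-box that MYC and MAX can bind), CGCATGCG (the core of the site of NRF1, a regulator of respiratory genes) and CCGGAAG (a core of ETS factor sites, which include GABPA).
Atp5g1, chr11:96075582-96075881, minus strand: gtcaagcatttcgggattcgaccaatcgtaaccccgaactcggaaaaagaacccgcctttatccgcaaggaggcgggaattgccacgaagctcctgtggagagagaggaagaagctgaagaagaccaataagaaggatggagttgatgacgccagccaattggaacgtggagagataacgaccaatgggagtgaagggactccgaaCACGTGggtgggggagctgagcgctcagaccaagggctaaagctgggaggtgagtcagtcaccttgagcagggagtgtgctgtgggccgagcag
Atp5g3, chr2:73911277-73911576, minus strand: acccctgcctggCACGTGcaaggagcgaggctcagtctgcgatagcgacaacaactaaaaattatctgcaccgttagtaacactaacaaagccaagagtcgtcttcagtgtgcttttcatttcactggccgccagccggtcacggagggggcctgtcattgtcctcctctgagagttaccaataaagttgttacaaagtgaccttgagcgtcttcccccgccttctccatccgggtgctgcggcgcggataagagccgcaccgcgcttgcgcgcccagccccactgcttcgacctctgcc
Atp5g2, chr15:102670998-102671297, minus strand: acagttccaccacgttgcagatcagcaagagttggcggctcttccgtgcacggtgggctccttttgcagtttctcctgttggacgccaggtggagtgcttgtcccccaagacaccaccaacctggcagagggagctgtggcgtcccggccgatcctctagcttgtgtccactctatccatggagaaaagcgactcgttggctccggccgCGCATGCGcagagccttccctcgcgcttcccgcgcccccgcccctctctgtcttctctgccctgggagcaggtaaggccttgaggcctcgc
Uqcr11, chr10:80406772-80407071, minus strand: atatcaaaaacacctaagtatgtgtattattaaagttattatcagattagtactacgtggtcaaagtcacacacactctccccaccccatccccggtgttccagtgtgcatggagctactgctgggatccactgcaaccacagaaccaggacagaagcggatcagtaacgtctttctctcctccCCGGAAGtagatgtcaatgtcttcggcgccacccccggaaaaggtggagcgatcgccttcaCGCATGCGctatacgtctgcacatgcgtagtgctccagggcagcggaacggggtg
An E-box stood 44 bases before the start in Atp5g1 and 238 bases before it in Atp5g3. The Atp5g2 window held an NRF1 core and no E-box, and the Uqcr11 window an ETS core, an NRF1 core and no E-box. These windows were chosen after the values were seen, and a relation of motif to fold change was not tested. A match of letters is no evidence of binding.

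Over all 65 genes with a window, both strands were searched for the same motifs and for AAGATGG, the core of YY1 sites. An E-box was found in 7 genes (10.8%) against 8.09% of 27025 genes with such windows in the table. The NRF1 core was found in 9 (13.8%, against 2.07%), the ETS core in 16 (24.6%, against 9.93%) and the YY1 core in 12 (18.5%, against 7.28%). Of the 35 genes with a window that were called higher in C-MYC against EV, 4 held an E-box (11.4%), and so did 3 of the 30 that were not called (10.0%). For the NRF1 core these shares were 14.3% and 13.3%, for the ETS core 17.1% and 33.3%, and for the YY1 core 22.9% and 13.3%. The median log2 fold change in C-MYC against EV was 0.38 with an E-box and 0.33 without one. These are descriptions without a test. Genes with more than 1 window, 6 of the 65, counted as holding a motif if any window did.

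**Figure D5:**
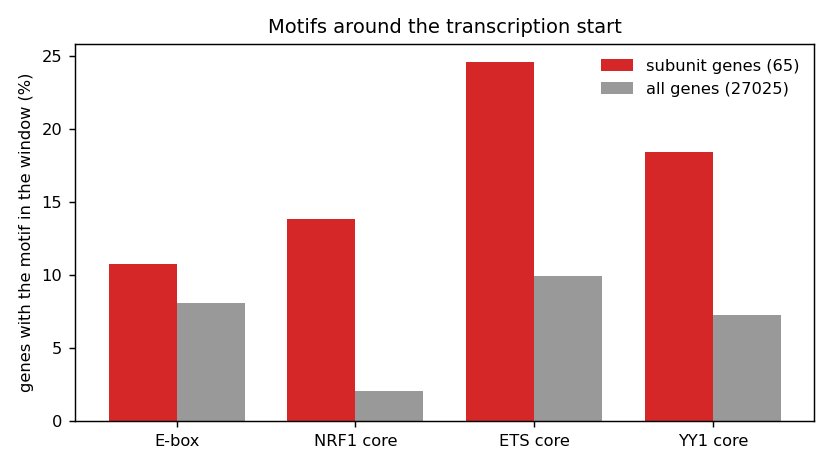
Share of genes with each motif in a window from 250 bases before to 50 bases after the start (vertical axis, %), for the 65 subunit genes (red) and for all 27025 genes with windows (grey). The E-box is found in 10.8% and 8.09%, the NRF1 core in 13.8% and 2.07%.

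Levels can be compared between genes only per length. Counts were divided by the median length of the protein-coding transcripts in GENCODE vM21, a choice made after the data were seen. On this scale of CPM per kilobase, the mean over the 6 libraries had a median of 90.8 for the complex I genes, 110.3 for complex II, 165 for complex III, 226 for complex IV and 208 for complex V. Atp5b (849 CPM per kilobase) and Atp5a1 (534) were the highest of all, and Cox6a1 (442) was the highest of complex IV. Within a complex the genes spread widely, from 18.2 to 166 CPM per kilobase in complex I. Lowest were Atp5s (1.94) and Cox7a1 (6.64). Atp5s and Atp5sl, which the name rule takes in, now carry the names Dmac2l and Dmac2, and neither was called in any comparison. Both enter the counts and medians given for complex V. The deposited FPKM values gave another order, with a Spearman correlation of 0.41 across the 76 genes, which are not independent replicates. For 19 of the 76 genes, FPKM relative to CPM per kilobase differed more than 4 times from that of the median gene. Atp5b was at 129 FPKM on average, rank 30 of 76, and Ndufv2 at 5.30 FPKM with 98.5 CPM per kilobase. Levels between genes therefore depend on the table used.

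The 8 symbols below the required mean were mostly tissue-specific forms. Cox6b2, a form of testis, was the nearest to it with 22 counts on average, and Cox6a2 had 12.5 and Cox4i2, a form of lung, 2. Cox8b, Cox7b2, Cox8c and Ndufa4l2 averaged between 0 and 1 count, so the forms Cox4i1, Cox6a1, Cox6b1, Cox8a and Ndufa4 supplied nearly all counts in place of these. Ndufs5, a complex I subunit of most tissues, is listed at 0 counts in all 6 libraries and at 54.1 and 69.6 FPKM with EV, 78.6 and 89.6 with BCR-ABL1 and 71.9 and 69.0 with C-MYC. Of 7148 symbols with 0 counts in all libraries, 40 had a mean of at least 10 FPKM. Ndufs5 was left out by the rule, and its counts say nothing of its expression.

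Other genes of the pathway were taken from lists of subunits with other names, assembly factors, regulators, factors of mitochondrial DNA and enzymes of the citric acid cycle. Over these lists, 48 of 87 genes tested (55.2%) were called higher in C-MYC against EV and 3 lower by the same edgeR test, beside 18.6% and 24.5% of all genes. In BCR-ABL1 against EV, 6 were called higher, whose share of 6.90% lies near the 5.08% of all genes, and 0 lower, beside 12.0%. In C-MYC against BCR-ABL1, 21 (24.1%) were called higher and 1 lower, beside 11.5% and 11.9%. The medians were 0.48, 0.20 and 0.32. Without a BCR-ABL1 or C-MYC library, calls over the whole table fell as well. The count of 48 became 26 without either C-MYC library. The count of 21 became 0 without BCR-ABL1 replicate 1, 7 without BCR-ABL1 replicate 2, 4 and 5 without C-MYC replicate 1 and 2 and 35 without either EV library, and that of 6 became 1 and 0 without BCR-ABL1 replicate 1 and 2, 2 without either C-MYC library and 9 without EV replicate 2. Of 8 subunits and carriers with other names, 6 were called higher in C-MYC against EV. Cycs, cytochrome c itself, had 83.4 and 99.1 CPM with EV, 91.7 and 128 with BCR-ABL1 and 151 and 189 with C-MYC (log2 fold change 0.90, SE 0.19, adjusted p = 0.00703 in C-MYC against EV), and its BCR-ABL1 libraries overlapped those of EV. Cyc1, cytochrome c1 of complex III, had 142 and 133 CPM with EV, 159 and 167 with BCR-ABL1 and 239 and 232 with C-MYC without overlap (log2 fold change 0.77, SE 0.10, adjusted p = 0.000951 against EV, log2 fold change 0.53, SE 0.10, adjusted p = 0.00873 against BCR-ABL1). Ndufab1, the acyl carrier protein of complex I, had 38.8 and 43.1 CPM with EV, 53.1 and 62.1 with BCR-ABL1 and 78.4 and 73.2 with C-MYC and was called in both oncogene conditions (0.89 at adjusted p = 0.00176 in C-MYC and 0.49 at adjusted p = 0.0415 in BCR-ABL1).

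Assembly factors were counted by complex, and 18.6% of all genes were called higher in C-MYC against EV. For complex I, 10 of 14 were called higher and 0 lower, led by Ndufaf6 (1.40 at adjusted p = 0.00112), Ndufaf4 (1.24 at adjusted p = 0.00158) and Ecsit (1.02 at adjusted p = 0.000752). In C-MYC against BCR-ABL1, 5 of 14 were called higher, beside 11.5% of all genes. Of the 4 genes without a call against EV, Ndufaf3, named after its values were seen, was at -0.46 (adjusted p = 0.0819). Ndufaf4 had 19.8 and 26.1 CPM with EV, 27 and 33.4 with BCR-ABL1 and 51.4 and 57.2 with C-MYC, and Ecsit, which is also known from innate immune signaling, had 29.6 and 31.2 CPM with EV, 33.1 and 35.1 with BCR-ABL1 and 63.1 and 59.9 with C-MYC. In both genes the C-MYC libraries lay above all others. For complex IV, 8 of 19 were called higher, 0 lower and 11 not at all, with the largest change in Lrpprc, which stabilises mitochondrial transcripts (1.17 at adjusted p = 0.00159), then Taco1, a translational activator of a complex IV subunit (0.91 at adjusted p = 0.00568), and Cox17, a copper chaperone (0.66 at adjusted p = 0.0428). Complex III had 3 of 6 called higher, Bcs1l, Uqcc1 and Uqcc2, and complex V 2 of 3, of which Tmem70 changed by 1.06 (adjusted p = 0.000886). Complex II was the exception, where none of the 4 genes was called higher, also at an unadjusted p below 0.05, and Sdhaf2 was called lower. Sdhaf2, which attaches the flavin to Sdha, had 92.9 and 83.9 CPM with EV, 77.5 and 76 with BCR-ABL1 and 55.3 and 56.2 with C-MYC, with C-MYC below all other libraries (log2 fold change -0.67, SE 0.11, adjusted p = 0.00288 against EV, log2 fold change -0.46, SE 0.11, adjusted p = 0.0239 against BCR-ABL1). In BCR-ABL1 against EV, where 5.08% of all genes were called higher, the assembly factors called were Ndufaf6 (0.66 at adjusted p = 0.0495) and Cox18 (0.62 at adjusted p = 0.0479).

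Among factors of mitochondrial DNA, 5 of 10 were called higher in C-MYC against EV, beside 18.6% of all genes. The largest changes among those called were in Peo1, the helicase of the mitochondrial replisome (0.86 at adjusted p = 0.00186), Ssbp1, its single-strand binding protein (0.76 at adjusted p = 0.00672), and Polrmt, the RNA polymerase (0.55 at adjusted p = 0.0468). No symbol of the 13 subunits encoded in mitochondrial DNA is in the table given here, so their transcripts were not analysed here. The nuclear regulators did not move one way. Ppargc1b, a coactivator of respiratory genes, had 5.19 and 7.27 CPM with EV, 5.36 and 8.31 with BCR-ABL1 and 23.8 and 17.4 with C-MYC (log2 fold change 1.72, SE 0.29, adjusted p = 0.00274 against EV). Pprc1, a related coactivator, had 144 and 92.4 CPM with EV, 154 and 150.0 with BCR-ABL1 and 313 and 235 with C-MYC (log2 fold change 1.21, SE 0.22, adjusted p = 0.00355 against EV). Both were also called against BCR-ABL1 (1.59 at adjusted p = 0.00811 and 0.85 at adjusted p = 0.0265). The nuclear receptor gene Esrra was lower in C-MYC (-0.63 at adjusted p = 0.0153), as was Gabpb2 (-0.36 at adjusted p = 0.0272), and Nrf1 was not called (0.08 at adjusted p = 0.699).

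The citric acid cycle, which supplies NADH and succinate to the chain, had 12 of 14 genes called higher in C-MYC against EV and 0 lower. It had 3 called higher in BCR-ABL1 against EV and 7 in C-MYC against BCR-ABL1. Of all genes, 18.6%, 5.08% and 11.5% were called higher in these comparisons, and 24.5% lower in the first. Suclg2, a subunit of succinyl-CoA ligase, had 30.2 and 33.4 CPM with EV, 44.4 and 50.8 with BCR-ABL1 and 82 and 88.3 with C-MYC, with no overlap and a call in each comparison (1.42 at adjusted p = 0.00037, 0.58 at adjusted p = 0.0217 and 0.84 at adjusted p = 0.00487). Idh3a, the catalytic subunit of the NAD-dependent isocitrate dehydrogenase, had 90.0 and 106 CPM with EV, 152 and 170.2 with BCR-ABL1 and 216 and 224 with C-MYC and was called in each as well (1.17 at adjusted p = 0.000497, 0.71 at adjusted p = 0.00734 and 0.45 at adjusted p = 0.0315). Idh2, the NADP-dependent mitochondrial enzyme, rose by 0.84 (adjusted p = 0.00202) in C-MYC against EV. Between the oncogenes, the 9 subunit genes called changed by at most 0.48 on the log2 scale. The largest estimate of all 76 was 0.59 for Ndufa5, which was not called (adjusted p = 0.0624). Suclg2 and Ndufaf4, named because their changes were among the largest of their lists, differed by 0.84 and 0.84. All of these comparisons with EV carry the differences in myeloid, stromal and T cell markers given above, whose part was not tested, and markers differed between the oncogenes as well. In C-MYC against BCR-ABL1 the summed level of the B cell precursor markers was 0.604 times as high, with 8 of 11 called lower, that of the T and NK cell markers 0.460 times, with 1 of 8 called lower, and that of the stromal markers 0.366 times, with 3 of 7 called lower. The summed level of the myeloid markers was 1.74 times as high in C-MYC, with 2 of 9 called higher. Of all genes, 11.9% were called lower and 11.5% higher there. The median log2 fold change of the T and NK cell markers between the oncogenes was -0.61. The part of these differences in the results was not tested.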

How the data were processed

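RNA was sequenced from 6 libraries, 2 per condition. The authors aligned reads to GRCm38 with STAR 2.5.0 and used StringTie 1.3.0, per the labels. The deposited counts are raw counts per gene symbol, and the program that made them and its treatment of strand and of reads with several matches are not given in the sources used here. The deposited FPKM values were computed by the authors and served for limma, for Ndufs5 and for the comparison of levels between genes only. Counts were scaled by TMM and tested with edgeR 4.0.16 (quasi-likelihood, R 4.3.3) over all 6 libraries, with low counts removed by filterByExpr, and Benjamini-Hochberg adjustment over 12786 genes at 0.05. All p-values named above as adjusted come from this fit. With 2 libraries a condition, which the study describes as duplicate experiments, p-values measure the spread between these libraries. The common biological coefficient of variation was 0.151. Alternatives were DESeq2 1.42.0, RLE factors, total counts, no filter, limma 3.58.1 on log2(FPKM + 1) and log2(FPKM + 0.1), the 4 libraries compared, a replicate term and leaving out each library. Genes named were the central subunits, the families with several forms, the 5 genes with the largest change among those called in each comparison and up to 3 genes of each other list, and those outside this rule are named as such. The subunit genes, lists and markers were chosen with earlier results of these data known. In simulated counts for C-MYC against EV with 12786 genes, edgeR recovered 67 of 100 genes changed by 1 on the log2 scale and 3 of 100 changed by 0.5. The simulation changed no other genes and gave every gene about the common coefficient of variation. In the data, far more genes were called and the median coefficient of the subunit genes was 0.102. Its recovery therefore does not carry over to the subunit genes. The 15 ChIP-seq samples were not used here. One subunit gene is not reported here by name.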

Additional observations from a re-analysis of the deposited data

How the results depend on the processing

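The complex IV median in C-MYC against BCR-ABL1 passed below 0 without C-MYC replicate 1, and no other count or median of a complex changed direction. Removing the filter on low counts or keeping only the subunit genes that average 500 counts or more moved no count or median beyond its limit. Beside 40, 7 and 9 subunit genes called higher in C-MYC against EV, BCR-ABL1 against EV and C-MYC against BCR-ABL1, the counts were as follows. DESeq2 gave 14 and RLE factors 11 in BCR-ABL1 against EV. Total counts gave 25, 3 and 5, with 1, 0 and 1 lower, and shifted the median of all genes from -0.08 to -0.19 in C-MYC against EV, while the difference between the medians of the subunit genes and of all genes stayed at 0.41. limma gave 24, 0 and 2 with either pseudocount, with 1, 0 and 1 lower. Only the 4 libraries compared gave 4 in BCR-ABL1 against EV and 14 with 2 lower in C-MYC against BCR-ABL1. For the other genes of the pathway, total counts gave 29 higher and 6 lower in C-MYC against EV, 2 higher in BCR-ABL1 against EV and 2 lower in C-MYC against BCR-ABL1, limma 30 higher, 5 lower and, in BCR-ABL1, 2, and the 4 libraries 1 in BCR-ABL1 against EV and 36 higher and 2 lower in C-MYC against BCR-ABL1. The cause of these changes was not tested.

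Medians of the log2 fold change by complex moved beyond the spread between replicates as follows. With DESeq2 they were 0.36, 0.43 and 0.40 for complexes I, II and V in C-MYC against EV, 0.27 and 0.26 for complexes II and V in BCR-ABL1 against EV, 0.17 for complex V in C-MYC against BCR-ABL1. With RLE factors they were 0.35, 0.42 and 0.39 for complexes I, II and V in C-MYC against EV, 0.25 for complex V in BCR-ABL1 against EV, 0.17 for complex V in C-MYC against BCR-ABL1. With total counts they were 0.19, 0.26, 0.42, 0.18 and 0.23 for complexes I, II, III, IV and V in C-MYC against EV, 0.12, 0.18, 0.24, 0.15 and 0.16 for complexes I, II, III, IV and V in BCR-ABL1 against EV, 0.051, 0.11 and 0.10 for complexes I, II and V in C-MYC against BCR-ABL1. With limma on log2(FPKM + 1) they were 0.21, 0.25, 0.41, 0.17 and 0.27 for complexes I, II, III, IV and V in C-MYC against EV, 0.11, 0.17, 0.25, 0.15 and 0.17 for complexes I, II, III, IV and V in BCR-ABL1 against EV, 0.053, 0.10, 0.18 and 0.11 for complexes I, II, III and V in C-MYC against BCR-ABL1. On log2(FPKM + 0.1) they were 0.21, 0.25, 0.41, 0.17 and 0.28 for complexes I, II, III, IV and V in C-MYC against EV, 0.11, 0.17, 0.25, 0.15 and 0.17 for complexes I, II, III, IV and V in BCR-ABL1 against EV, 0.054, 0.10, 0.18 and 0.12 for complexes I, II, III and V in C-MYC against BCR-ABL1. With the 4 libraries they were 0.37, 0.43, 0.59 and 0.40 for complexes I, II, III and V in C-MYC against EV. All kept their direction.

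The replicate numbers 1 and 2 are shared by the conditions, but nothing names a batch behind them. The correlation of same-numbered deviations was 0.273 over all genes and 0.327 over the subunit genes for EV with BCR-ABL1, 0.236 and 0.566 for EV with C-MYC, and 0.204 and 0.548 for BCR-ABL1 with C-MYC. With a replicate block, 19 subunit genes were called higher in BCR-ABL1 against EV in place of 7, where 9.55% of all genes were in place of 5.08%. In that fit 10 other genes were called higher there, 1 subunit gene (Cox7a2l) was called lower in C-MYC against EV and 1 in C-MYC against BCR-ABL1, and other genes had 5 lower in C-MYC against EV and 32 higher and 2 lower in C-MYC against BCR-ABL1.

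Leaving out each library in turn, subunit genes called higher ranged from 21 to 42 in C-MYC against EV, 0 to 11 in BCR-ABL1 against EV and 0 to 14 in C-MYC against BCR-ABL1, and lower from 0 to 2, 0 to 0 and 0 to 2. Other genes called higher ranged from 26 to 47, 0 to 9 and 0 to 35 in the same order, and lower from 1 to 6, 0 to 0 and 0 to 2. Medians in C-MYC against EV ranged from 0.31 to 0.35 for complex I, 0.35 to 0.41 for complex II, 0.49 to 0.63 for complex III, 0.21 to 0.38 for complex IV and 0.35 to 0.42 for complex V. Medians in BCR-ABL1 against EV ranged from 0.18 to 0.22 for complex I, 0.21 to 0.29 for complex II, 0.26 to 0.39 for complex III, 0.19 to 0.34 for complex IV and 0.20 to 0.27 for complex V. Medians in C-MYC against BCR-ABL1 ranged from 0.073 to 0.13 for complex I, 0.13 to 0.19 for complex II, 0.22 to 0.28 for complex III, -0.056 to 0.077 for complex IV and 0.11 to 0.17 for complex V. Of the 27 called genes that the naming rule chose in C-MYC against EV, 17 were called in all of these fits. Where a condition was left with 1 library, its spread was taken from the others. Without a BCR-ABL1 or C-MYC library, fewer genes of the whole table were called in every comparison. A gene without a call is not shown to be unchanged.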
